A study of Drosophila melanogaster with 5 samples.

Results

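The peaks described here lie in the Netrin interval, a 200 kb stretch of the Drosophila melanogaster X chromosome at positions 14520000 to 14720000 of the dm3 genome build, chosen by these coordinates as the place of the neighbouring genes NetA and NetB. They come from 2 deposited lists of open-chromatin peaks, and a peak belongs to the interval if its midpoint lies there. The interval held 27 of the 20000 peaks, 13 of 10000 from midline cells and 14 of 10000 from whole embryos. Chromatin had been profiled by FAIRE-seq, in which DNA that is not held on nucleosomes is recovered from fixed, sheared chromatin by phenol extraction and sequenced. The midline cells were GFP-positive cells sorted by flow cytometry from sim3.7-Gal4 UAS-mCD8::GFP embryos 6 to 8 hours after egg laying, in which a fragment of the single-minded gene drives a membrane GFP. The whole embryos were OregonR of the same age, and a further library was genomic DNA of adult virgin females of the y;cn,bw,sp strain. Sorted cells were fixed for 5 minutes after sorting and whole embryos for 10 minutes before homogenization, so cell type, strain, sorting and fixation all differ between the lists and cannot be told apart.

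NetA and NetB encode netrins, secreted proteins related to laminins that guide growing axons. In the Drosophila embryo both are made by cells at the midline of the ventral nerve cord, among other tissues, and they attract commissural axons through the receptor Frazzled, while the receptor Unc5 mediates repulsion. The genes act largely redundantly at the midline, and single-minded encodes the bHLH-PAS factor that sets the fate of midline cells. In the Release 6 reference table both genes lie on the X, with CG5321 between them, sbm on the far side of NetA and CG15890 on that of NetB, while CG43088 and hog lie inside NetB. That table is on another build than the peaks, so no peak was assigned to a gene. How much of NetA and NetB the interval holds, and which peaks lie at their promoters, was not determined. For the same reason the peaks at other netrin pathway genes and at midline marker genes were not located.

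Most midline peaks of the interval were also called in the whole embryo. Shared peaks were those with at least 1 bp of overlap between the lists. Of the 13 midline peaks, 9 were shared and 4 were midline-only (30.8%, exact Clopper-Pearson 95% interval 9.09 to 61.4%), against 32.3% of the midline peaks of the X and 39.1% of the whole midline list. Of the 14 embryo peaks, 8 were shared and 6 were embryo-only (42.9%, 17.7 to 71.1%), against 47.7% of the embryo peaks of the X and 43.4% of the whole embryo list. Both shares in the interval were close to those of the chromosome under this rule. The midline-only share was 50% (4 of 8, against 30.0% on the rest of the X) with both lists cut to their 5000 highest-scoring peaks. That cut also removed embryo partners ranked after 5000, and 7 of those 8 midline peaks were shared in the full lists. Other settings put this share on both sides of the rest of the X. It was 44.4% (4 of 9, against 32.2%) with 50 kb removed at each end. With 50 kb added it was 27.8% (5 of 18, against 32.3%). It was 38.5% with 50% reciprocal overlap (against 48.3%) and with midpoints within 250 bp (against 35.6%). The embryo-only share also fell on both sides (42.9% against 57.4% with reciprocal overlap, 50% against 47.7% with 50 kb added). The intervals cover counting error only. The authors pooled the replicates of each group into 1 list and the depth is unknown, so no difference between the groups was tested.

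The number of peaks in the interval was near the middle of those along the chromosome. It held 13 midline peaks, and 110 other windows of 200 kb along the X held a median of 13 (quartiles 8.25 and 19). Its 14 embryo peaks stood against a median of 16 (10 and 21.75). It held 4 midline-only peaks, the median of the other windows, and 6 embryo-only peaks, against a median of 7. Midline peaks covered 5065 bp of the interval, more than in 73 of the 110 windows. Embryo peaks covered 5505 bp, more than in 58 of them.

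**Figure D1:**
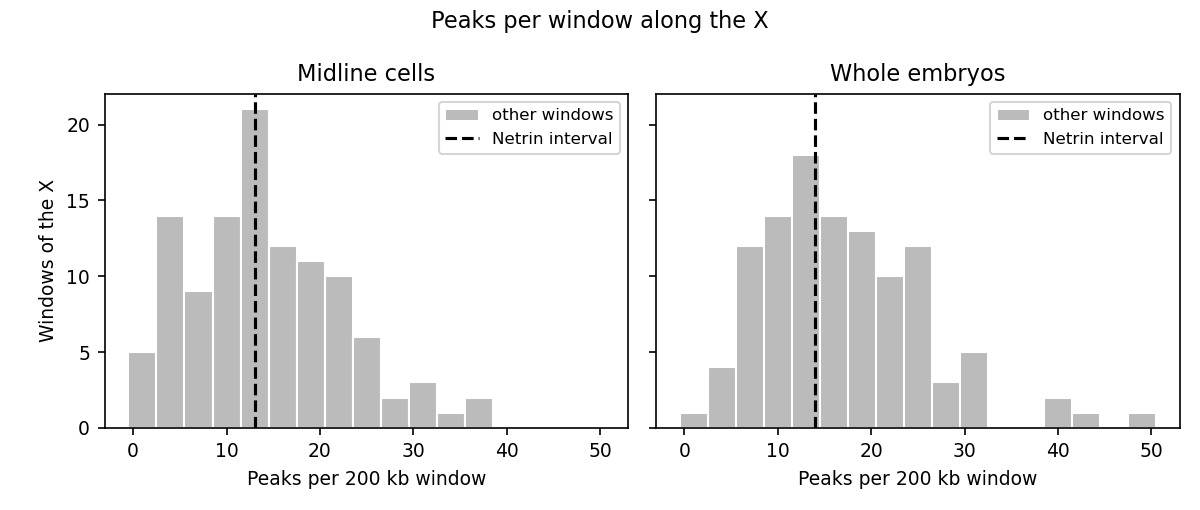
Peaks per 200 kb window along the X (horizontal axis, number of peaks; vertical axis, number of windows) in midline cells (left) and whole embryos (right). Grey bars are the 110 other windows and the dashed line is the Netrin interval, which held 13 midline and 14 embryo peaks and sits near the middle of both distributions.

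The highest-ranked open region of the interval was the same in both lists. In midline cells it was the peak at chrX:14547685-14548246, 562 bp wide, which ranked 61 of 10000 by the authors' score and 5 among the midline peaks of the X. In whole embryos its partner at chrX:14547698-14548277, 580 bp wide, ranked 34 in its list and 4 on the X. The pair overlapped by 549 bp, and the midpoints lay 22 bp apart. The authors' scores of the pair were 623 for the midline and 1219 for the embryo peak. The scale of these scores is not stated, so they serve only to rank peaks within a list.

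A weaker shared pair stood 3.98 kb to the left of that midline peak, between midpoints. It was at chrX:14543756-14544207 in midline cells, 452 bp wide, with rank 3435. In whole embryos the partner at chrX:14543810-14544078 was 269 bp wide, with rank 9066, and lay wholly within the midline peak. This region was therefore wider and nearer the top of the list in midline cells than in whole embryos.

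The left end of the interval held another shared pair that leaned the other way. The midline peak at chrX:14521137-14521501 was 365 bp wide and ranked 3603, and the embryo peak at chrX:14521094-14521534 was 441 bp wide and ranked 764. Beside it, 168 bp to the right of that embryo peak, lay the embryo-only peak at chrX:14521703-14522035, 333 bp wide with rank 6612. It was 201 bp from the nearest midline peak. These are the members nearest the left edge, with midpoints 1318.5 bp inside it for the midline and 1313.5 bp for the embryo list. The nearest midline peak outside was shared, at chrX:14474424-14474687, 264 bp wide with rank 1947 and its midpoint 45445 bp before the edge. The nearest embryo peak outside was embryo-only, at chrX:14496574-14496779, 206 bp wide with rank 7451 and its midpoint 23324 bp before the edge.

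**Figure D2:**
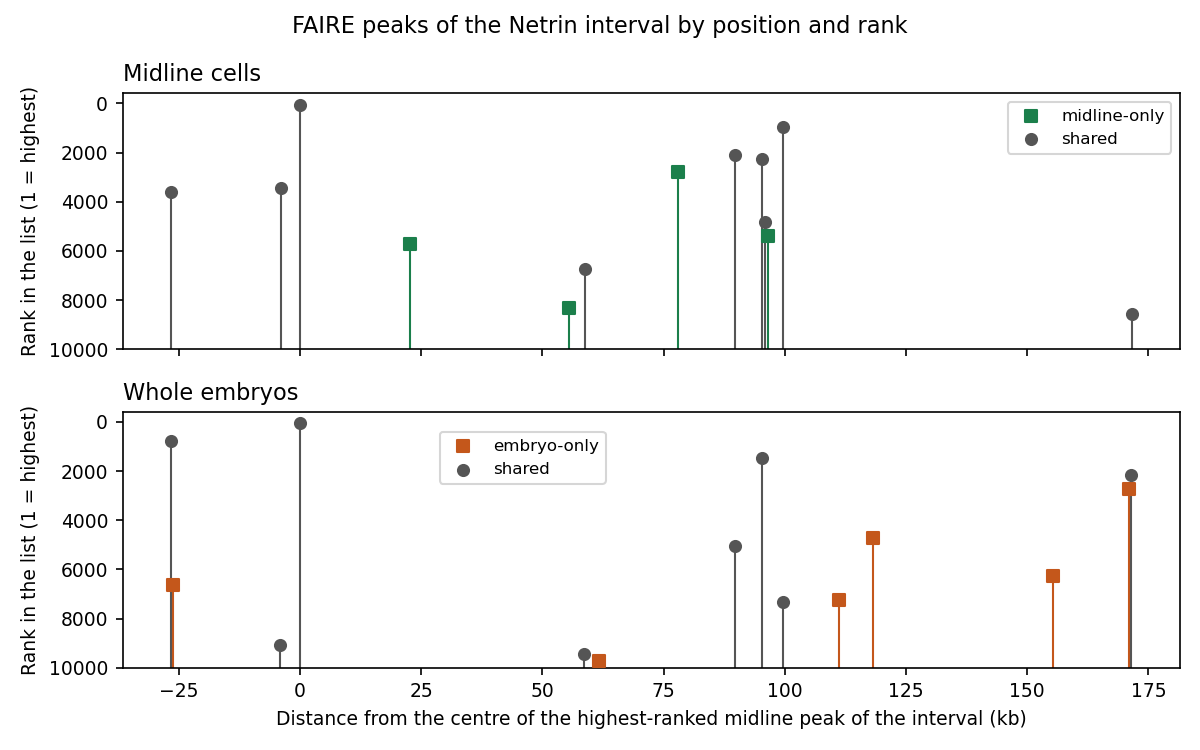
Position and rank of the 13 midline peaks (top) and the 14 embryo peaks (bottom) of the interval. The horizontal axis is the distance in kb from the centre of the highest-ranked midline peak, the vertical axis is the rank within the list with 1 at the top, circles are shared peaks and squares are peaks of 1 list. Midline-only peaks stand between 22.6 and 96.5 kb, and 4 of the 6 embryo-only peaks stand between 111 and 171 kb. The midline list has no peak there, so embryo peaks in that part are embryo-only by definition.

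The middle of the interval was sparse in both lists. From 14548278 to 14606566 the embryo list had no peak for 58.3 kb. Of the 1901 gaps between neighbouring embryo peaks on the X, 60 (3.16%) were as long, and their median was 4.72 kb. The gap was named as the longest of the embryo list in the interval, so the share only describes it. Any midline peak wholly inside it is midline-only by definition. In that gap lay the midline-only peaks at chrX:14570497-14570682, 186 bp wide with rank 5701, and at chrX:14603320-14603650, 331 bp wide with rank 8327. The first was 22.2 kb from the nearest embryo peak and the second 2916 bp. Between them the midline list had a gap of its own of 32.6 kb, and 11.2% of the gaps between midline peaks on the X were as long. Next to the second, a weak shared pair at chrX:14606609-14606749 in midline cells and chrX:14606567-14606718 in whole embryos ranked 6727 in the midline and 9425 in the embryo list. Then came the embryo-only peak at chrX:14609581-14609749, 169 bp wide, whose rank of 9732 was the lowest of all members.

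The highest-ranked midline-only peak followed, at chrX:14625857-14626157. It was 301 bp wide and ranked 2791 of 10000. The nearest embryo peak began 11.4 kb to its right. Of the midline-only peaks on the rest of the X, 22.5% ranked among the first 5000 of the list, and this was the only 1 of the 4 in the interval to do so. None of the 4 had a rank in the first 1000, where 1 of 502 midline-only peaks on the rest of the X stood.

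The densest group of peaks lay just beyond. Between 14637350 and 14647943, 5 midline peaks and 3 embryo peaks stood within 10.6 kb. The limits of this stretch were chosen after the positions were seen, as the chain with the most midline peaks at gaps of at most 6 kb. It made up 5.3% of the interval and held 46.9% of the bases in midline peaks and 40.3% of those in embryo peaks there. Such chains were not rare, since 81 of 672 chains on the X had at least 5 midline peaks.

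Its first member was a shared pair, at chrX:14637350-14637951 in midline cells and chrX:14637565-14638022 in whole embryos. The midline peak was 602 bp wide with rank 2084, and the embryo peak 458 bp wide with rank 5056. The midline peak reached further to the left, and 64.3% of it was covered by the embryo peak. At the centre of the stretch, midline cells had separate peaks at chrX:14642851-14643586, 736 bp wide with rank 2246, and at chrX:14643699-14643936, 238 bp wide with rank 4839, which stood 112 bp apart. In whole embryos a single peak of 1249 bp at chrX:14642740-14643988, with rank 1456, covered both entirely. These were the widest members of both lists, the embryo peak ranking 102 by width in its whole list and the 736 bp midline peak 280 in its own. On the rest of the X, 61 of 1888 embryo peaks (3.23%) overlapped more than 1 midline peak.

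A midline-only peak at chrX:14644348-14644552 extended this group to the right. It was 205 bp wide, ranked 5408, and began 359 bp beyond the end of the wide embryo peak. The last pair of the stretch differed most in its ranks towards midline cells. At chrX:14647351-14647942 the midline peak was 592 bp wide and ranked 951, the second-highest member of the midline list. Its embryo partner at chrX:14647430-14647943 was 514 bp wide and ranked 7304. The pair overlapped by 513 bp, which was nearly the whole of the embryo peak, so position and width were alike while the ranks were far apart.

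**Figure D3:**
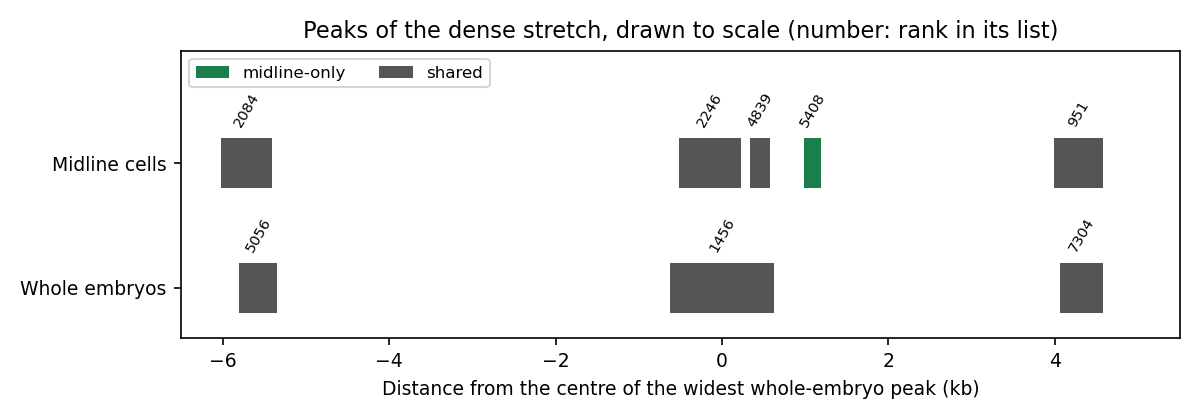
The dense stretch drawn to scale, with midline peaks above and embryo peaks below. The horizontal axis is the distance in kb from the centre of the widest embryo peak, bars span the peaks, colours give the class and numbers the rank in each list. The embryo peak of 1249 bp lies under the midline peaks ranked 2246 and 4839, and the midline peak ranked 951 lies over an embryo peak ranked 7304.

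The part to the right of the dense stretch was sparse as well. From 14647943 to 14719359 the midline list had no peak for 71.4 kb. Of the 1566 gaps between midline peaks on the X, 58 (3.7%) were as long, and their median was 4.34 kb. This gap too was named as the longest of its list in the interval, so the share only describes it. Any embryo peak wholly inside it is embryo-only by definition. In that gap lay 4 of the 6 embryo-only peaks. They were at chrX:14659147-14659337 (191 bp, rank 7247), chrX:14666153-14666360 (208 bp, rank 4726), chrX:14703275-14703438 (164 bp, rank 6264) and chrX:14718790-14719161 (372 bp, rank 2740). The first 3 were 11.2, 18.2 and 15.9 kb from the nearest midline peak, and the fourth was 198 bp from it. Between the second and the third of these the embryo list had a gap of its own of 36.9 kb, and 7.36% of the gaps between embryo peaks on the X were as long. The fourth had the highest rank among the embryo-only members, and 25.1% of embryo-only peaks on the rest of the X ranked in the first 5000.

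The interval ended within a group of peaks. Its last shared pair was at chrX:14719360-14719713 in midline cells, 354 bp wide with rank 8571. In whole embryos the partner at chrX:14719287-14719691 was 405 bp wide with rank 2176. This was the largest rank difference of the interval towards whole embryos. The midpoints were 464 bp (midline) and 511.5 bp (embryo) inside the edge. Another shared pair had its midpoints 116 bp (midline, rank 5057) and 88 bp (embryo, rank 3451) outside it. That pair was at chrX:14720006-14720227 in midline cells (222 bp wide) and chrX:14719910-14720267 in whole embryos (358 bp wide).

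The 9 overlapping pairs thus differed in rank in both directions. The midline peak stood nearer the top of its list in 4 pairs and the embryo peak in 5, and the wide embryo peak counts in 2 of those. On the rest of the X the midline peak was nearer the top in 41.8% of 1055 pairs. The median size of the rank difference was 2972 in the interval and 1583 on the rest of the X. In the interval the sizes ran from 27 to 6395 over only 9 pairs, and the difference between these medians was not tested. Both peaks of a pair were selected for the first 10000 of their lists, and the 2 lists have the same length. A rank difference as far towards the midline as that of the pair at 14647351 (951 in midline cells and 7304 in whole embryos) was found in 0.569% of the pairs on the rest of the X. For the pair at 14543756 (3435 in midline cells and 9066 in whole embryos) the share was 1.23%. As far towards the embryo as the pair at 14719360 (8571 in midline cells and 2176 in whole embryos) were 3.22%. These pairs were named for their differences after the values were seen, so the shares describe them and are not a test. A rank can also move because other peaks of the list changed, and the read signal at the pairs was not available to check this.

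**Figure D4:**
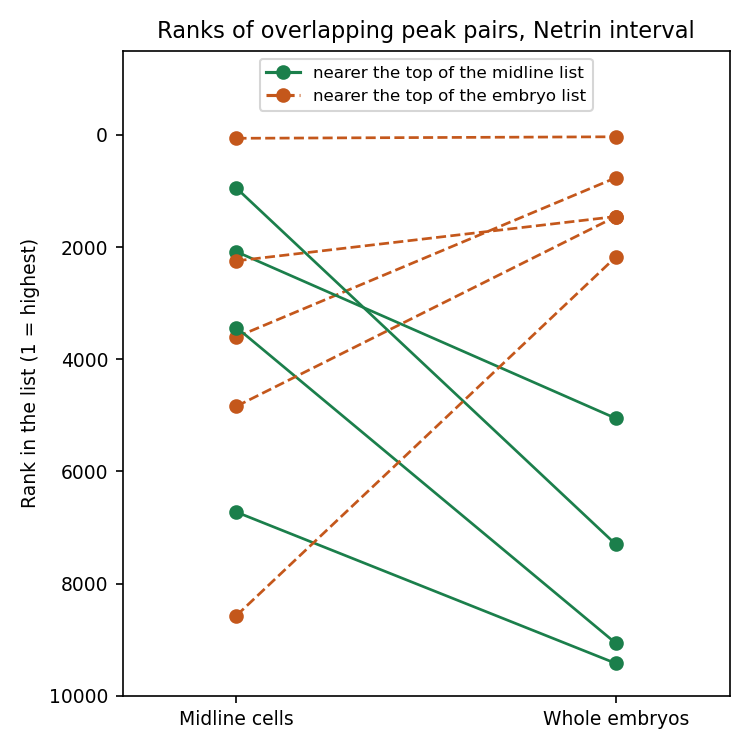
Ranks of the 9 overlapping pairs in midline cells (left) and whole embryos (right), with rank 1 at the top of the vertical axis. Solid lines are the 4 pairs nearer the top of the midline list and dashed lines the 5 nearer the top of the embryo list. The highest pair is nearly level, at 61 in midline cells and 34 in whole embryos, and the steepest lines join 951 in midline cells with 7304 in whole embryos and 8571 in midline cells with 2176 in whole embryos.

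Shared members had the larger median width in both lists. In midline cells the 9 shared peaks of the interval ran from 141 to 736 bp with a median of 452 bp, and the 4 midline-only peaks from 186 to 331 bp with a median of 253 bp. On the rest of the X the medians were 280 bp for shared and 214 bp for midline-only peaks. All 4 midline members of at least 500 bp were shared, as were 125 of 136 such midline peaks on the rest of the X. In whole embryos the 8 shared peaks ran from 152 to 1249 bp with a median of 449.5 bp, and the 6 embryo-only peaks from 164 to 372 bp with a median of 199.5 bp. On the rest of the X the medians were 383 bp for shared and 216 bp for embryo-only peaks. A wide peak has more chance of overlapping any other, and the part of this in the widths was not tested.

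Over both classes, midline members had a median width of 354 bp (exact binomial 95% interval 205 to 592 bp) against 257 bp on the rest of the X. Embryo members had a median of 352.5 bp (169 to 514 bp) against 290 bp. Both medians depended on the limits of the interval. The midline median was 300.5 bp with 50 kb added at each end, against 257 bp on the rest of the X. With 50 kb removed it was 301 bp, against 258 bp. The embryo median was 272.5 bp with 50 kb added at each end and 208 bp with 50 kb removed. The ranges of members and chromosome overlapped widely in both lists.

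**Figure D5:**
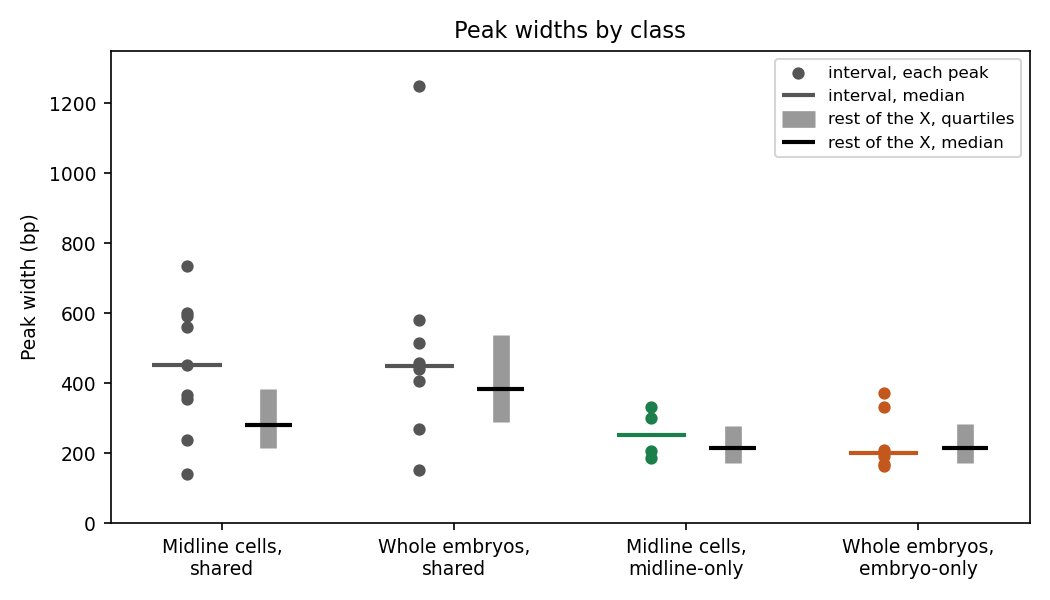
Width of each peak of the interval in bp (points, with a coloured line at the median), by list and class. Beside them a grey bar spans the quartiles and a black line marks the median on the rest of the X. The widest points are the shared embryo peak of 1249 bp and the shared midline peak of 736 bp, and the peaks of 1 list reach 331 bp in midline cells and 372 bp in whole embryos.

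Ranks were spread over nearly the whole of both lists. Midline members ranked from 61 to 8571 with a median of 3603, against 4988 on the rest of the X. Embryo members ranked from 34 to 9732 with a median of 5660, against 5135 on the rest of the X. This order turned under other settings, as the embryo members stood nearer the top than the rest of the X among the 5000 highest-scoring peaks, with 50 kb added at each end, with membership by any overlap and with ranks by width. Among members ranked 1001 to 5000, 5 of 6 midline peaks were shared, against 83.3% on the rest of the X, and 2 of 4 embryo peaks, against 71.1%. Among those ranked 5001 to 9000, 2 of 5 midline peaks were shared, against 52.3%, and 2 of 5 embryo peaks, against 31.9%. Of the embryo members ranked after 9000, 2 of 3 were shared, against 20.2%. These counts are too small to set the interval apart from the chromosome. The shared embryo peaks ranked after 9000, at 14543810 and 14606567, had midline partners nearer the top of their list. Peaks ranked so low leave little room for a partner with a lower rank. On the rest of the X, 42 of 1052 shared midline peaks ranked after 9000.

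The authors' peak names carry numbers that rise along the chromosome and skip values, which may count peaks called but left out of the 10000. From the first to the last member, 6 of 19 numbers were skipped in the midline list, and 7 of 21 in that of the embryo. On the whole X, 67.9% of the midline and 67.4% of the embryo numbers were kept, close to the 68.4% of midline and 66.7% of embryo numbers in the interval. If the numbers were given before selection, the embryo list had 3 further calls in the gap that holds the midline-only peaks at 14570497 and 14603320, and 1 between the embryo peaks on either side of 14625857. For the midline-only peak at 14644348 it had 0. The midline list had 1 further call in the 71.4 kb gap that holds 4 embryo-only peaks kilobases apart, 0 beside the embryo-only peak at 14609581 and 2 beside that at 14521703. The positions of the skipped calls are unknown.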

How the data were processed

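FAIRE-seq peaks of 2 groups were used, each called by the authors on the 2 pooled replicates, per the peak names in the deposited files, which also name MACS2. Per the submitters' processing notes the tools were CASAVA 1.8.2, Bowtie2, SAMtools, bedtools and MACS2 with the dm3 build. Settings, and how the genomic input entered, are not given in the sources used. The deposited score of each peak is a whole number of unstated scale, made by the authors, and was used only to rank peaks within a list (ties share the smallest rank). The files hold no read counts and no values per replicate, so depth is unknown; 0 columns with per-sample values went unused. The deposited lists hold 10000 peaks each. The labels name no sequencing batch, and pooled lists cannot be split by one.

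Coordinates were made 1-based. Sharing required 1 bp of overlap. Windows of 200 kb were laid along the X in step with the interval. No difference was tested. The alternatives were another sharing rule, a fixed width of 500 bp, the 5000 highest-scoring peaks, other window limits, other membership, ranks by width and moved windows. Every member was to be accounted for, with all peaks of 1 list, the highest-ranked shared peaks and those nearest each edge named by position, width and rank. The interval, its members and the gene lists were chosen with earlier results of these data known. The planned counts at other netrin pathway and marker genes, the protein comparison and the promoter motifs were not run, since no annotation or sequence of dm3 was used here. The sharing procedure was tested on simulated lists in which pairs either began at the same position or did not overlap. This checks the code only, since no pair overlapped partly and the sharing rules could not differ there. Analyses used Python 3.11.15, numpy 2.4.6, pandas 2.3.3, scipy 1.17.1 and matplotlib 3.10.9.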

Additional observations from a re-analysis of the deposited data

How the results depend on the processing

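All 36 values recomputed with another rule, width, list length or window stayed within the 95% interval of the main value. For values of the 13 and 14 peaks those intervals are wide and say little about stability. The other values were shares of other windows with at least as many peaks. Their intervals rest on 110 windows, which are not replicates. For midline peaks this share was 54.5%, and 54.6% with moved windows. For embryo peaks it was 60.9%, and 64.8% with moved windows. The midline-only share ran from 27.8% to 50%. The 27.8% came with 50 kb added at each end (5 of 18 peaks, against 32.3% on the rest of the X). The 50% came with both lists cut to 5000 peaks (4 of 8, against 30.0%), which also removed embryo partners ranked after 5000. The embryo-only share ran from 40.0% with membership by any overlap (against 47.7%) to 50%. That 50% came with 50 kb added at each end (11 of 22, against 47.7%) and with both lists cut to 5000 peaks (3 of 6, against 42.7%). The median width ran from 300.5 to 507 bp in the midline list and from 208 to 423 bp in the embryo list. It stayed above the rest of the X in the midline list, but fell below it in the embryo list under both changes of the window limits. The median rank as a percent of the list ran from 29.7 to 49.8% in the midline list (36.0% as reported). It was always nearer the top than on the rest of the X, but only slightly with 50 kb removed at each end (48.4% against 49.6%). With the 5000 highest-scoring peaks it was 49.8% against 53.3%. In the embryo list it ran from 36.2 to 72.5% (56.6% as reported) and changed sides of the rest of the X. The extremes of 507 and 423 bp and of 49.8 and 36.2% came from the 5000 highest-scoring peaks, that of 29.7% from ranking by width, and those of 208 bp and 72.5% from the window with 50 kb removed at each end. No paired analysis was possible because each list holds peaks of pooled replicates, which also kept any replicate from being left out. As the depth is unknown, a peak missing from a list may be closed or only undetected.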
